A study of Caenorhabditis elegans with 12 samples.

Results

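The transcriptional response of Caenorhabditis elegans to the pathogenic Pseudomonas aeruginosa strain PA14 was measured in the control RNAi libraries of an RNA-seq series on N-linked protein glycosylation and immunity. These libraries make up 6 of the 12 in the series, 3 from worms kept on E. coli and 3 from worms kept on PA14. All 6 came from whole bodies of wild-type N2 worms, which the labels give as adults. The worms were grown to the L4 stage, the last larval stage, on bacteria that carried a control RNAi vector, and were then kept for 12 h on the same RNAi bacteria or on PA14. The 6 other libraries came from worms fed bacteria that are labelled as targeting stt-3, the catalytic subunit of the oligosaccharyltransferase complex, and were treated in the same way. The word labelled is kept for them throughout, since stt-3 itself had no lower deposited values there. By qRT-PCR the authors reported less stt-3 mRNA in worms fed such bacteria. Of 17430 genes listed, 12174 reached a deposited value of 10 in 3 or more control RNAi libraries and were tested. The deposited values are normalized scores rounded to whole numbers and not read counts, so that depth is unknown.

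C. elegans lives on bacteria and has neither antibodies nor circulating immune cells, and its defence rests largely on the cells that line its body, above all those of the intestine. On PA14, which colonizes the intestinal lumen, a p38 mitogen-activated protein kinase cascade that ends in the kinase PMK-1 is known to induce secreted effectors such as lysozymes and lectins. A separate route is known to run through the bZIP transcription factor ZIP-2, which responds when translation is disturbed. The bacterial lawn is also the food, and PA14 and E. coli differ as diets as well as in pathogenicity. These aspects of the exposure cannot be told apart when only PA14 and E. coli are compared.

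On PA14, 1225 of the 12174 genes (10.1%) were higher and 1831 (15%) were lower, when a change beyond 2-fold with limma on log2(value + 1) and an adjusted p value (Benjamini-Hochberg, BH) under 0.05 were required. Fold changes on this scale understate the change of genes with low values. Of the higher calls, 324 reached a value of 10 in no library on E. coli, and 727 of the lower calls did so in no library on PA14. Such genes passed the filter only through the group where they were high, so that their direction is no separate result. They also enter the counts of the lists below. Changes downward were also the larger ones, with a median log2 fold change of -2.87 among the genes called lower and 1.75 among those called higher. Of the genes called lower, 832 differed by more than 8-fold, and of those called higher, 214 did. Without the fold limit, 6254 of the 12174 genes had a limma adjusted p under 0.05, 3150 of them higher and 3104 lower on PA14. Later counts of p under 0.05 are to be read against this background, which is at least as large for unadjusted p values. The 3 libraries on E. coli and the 3 on PA14 did not overlap in 7217 genes (59.3%), among them 1219 of the genes called higher and 1823 of those called lower. The first principal component held 87% of the variance and separated the food sources, from -99.2 to -61.6 on E. coli and from 60.2 to 91.8 on PA14. The spread behind the p values and standard errors was estimated over all 12 libraries of the series, within conditions. The labels do not state that the replicates were separate cultures, and p values therefore measure the spread between libraries only.

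The libraries differed in their totals, which were 7644341 to 8627187 on E. coli and 6345059 to 7134619 on PA14, whereas the upper quartiles were held at 161 to 165 by the normalization. Scaling all libraries to equal totals moved the median log2 change of all genes from 0.04 to 0.31. The calls then were 1747 higher and 1629 lower, so that the share of higher calls was 51.7% in place of 40.1%. Of the calls as deposited, 994 higher and 1608 lower calls were kept in each of the 6 fits that left out 1 library. In whole animals, fewer cells of a type and less RNA per cell cannot be told apart. The labelled whole body held markers of each tissue looked for, with 18 of 18 intestine, 21 of 25 body wall muscle, 12 of 16 pharynx, 17 of 31 neuron and 15 of 16 epidermis markers above the filter. Whether counting used strand is not given in the sources used here, so that reads of genes with overlapping exons cannot be told apart. Among the genes named in the comparisons that follow this concerns C17H12.8, acs-7, aqp-4, bli-1, clec-3, clec-85, col-74, ctl-2, cut-3, cysl-2, dpy-8, epg-2, gpd-2, gsto-1, hrg-3, hrg-7, hsp-17, lec-3, lin-28, lys-8, mlk-1, nhr-8, nlp-24, nlp-26, nsy-1, sek-1, skn-1, ucr-2.2 and unc-64, each of which shares exon sequence with a neighbour.

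**Figure D1:**
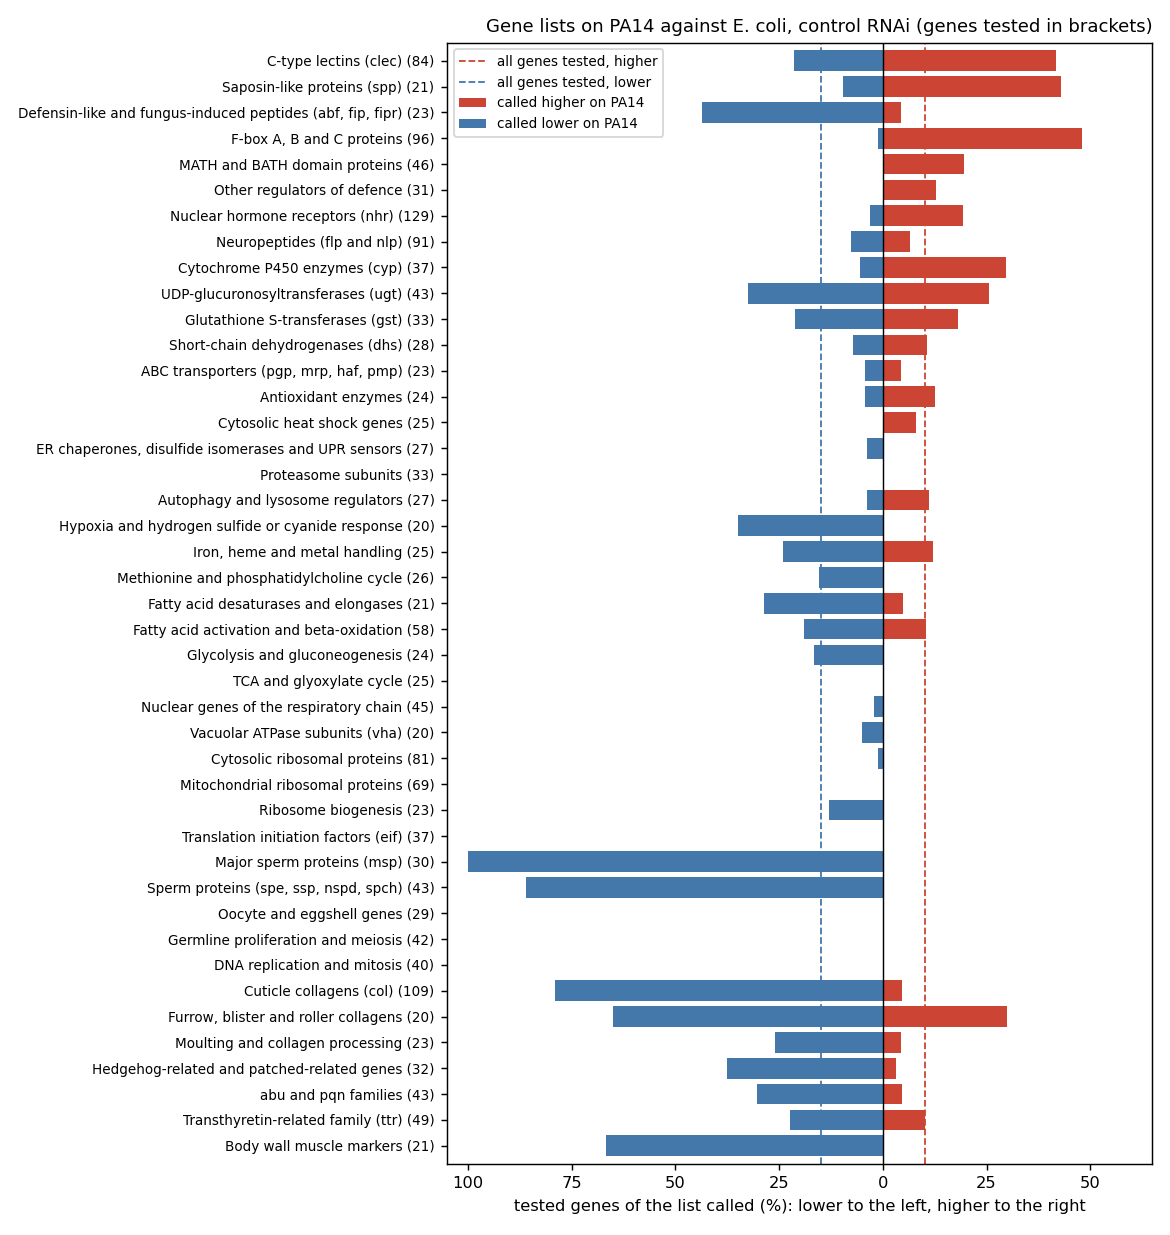
The share of tested genes called higher (red, to the right) or lower (blue, to the left) on PA14 is drawn in percent for 43 gene lists with at least 20 tested genes, whose number is in brackets. Dashed lines give the shares over all genes tested, 10.1% higher and 15% lower, and major sperm proteins (100%), other sperm proteins and col collagens (78.9%) reach furthest left while F-box proteins (47.9%) reach furthest right.

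C-type lectins, secreted proteins that bind carbohydrates, made up the largest effector family tested. Of 84 tested clec genes, 35 (41.7%) rose and 18 (21.4%) fell on PA14, and the median log2 change was 0.48. All clec genes together took 0.325% to 0.392% of the library total on E. coli and 1.17% to 1.56% on PA14. The normalized values of clec-85 were 260, 317 and 305 on E. coli against 5056, 2806 and 4611 on PA14, so that the log2 fold change was 3.78 (SE, standard error, 0.33, BH-adjusted p = 4.41e-05). For clec-3 (chromosome II, 3017468 to 3019907) the values were 2, 3 and 5 on E. coli against 236, 133 and 352 on PA14 (log2 fold change 5.75). clec-174 was listed at 0 in all 3 libraries on E. coli and at 213, 96 and 433 on PA14. The groups of libraries did not overlap for any of these genes, as for 59.3% of all genes tested. For clec-3 and clec-174 this was a condition for naming them. Members also moved the other way, as clec-10 went from 175, 173 and 123 on E. coli to 15, 17 and 11 on PA14 (log2 fold change -3.37, adjusted p = 4.41e-05).

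Lysozymes hydrolyse the peptidoglycan of bacterial cell walls, and 5 of the 7 tested lys genes rose while none fell. lys-2, which lies on chromosome V from 10280307 to 10281474, had values of 1009, 1895 and 1800 on E. coli against 15604, 8995 and 15976 on PA14 (log2 fold change 3.12 ± 0.34 (SE), adjusted p = 5.87e-05). Every PA14 library was thus several times above the highest E. coli library. lys-1 went from 2907, 4414 and 4207 to 15610, 10198 and 14898, lys-7 from 301, 608 and 809 to 2652, 1781 and 2781, and lys-8 from 1450, 1814 and 1704 to 7090, 4617 and 6613. Their log2 fold changes were 1.82, 2.15 and 1.86. The list as a whole rose from 0.078% to 0.12% of the library total on E. coli to 0.411% to 0.634% on PA14.

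The saposin-like proteins are related to the pore-forming peptides of amoebae, and 9 of 21 tested spp genes rose and 2 fell (1 at equal library totals). The values of spp-2 (chromosome X, 7315995 to 7316818) were 321, 481 and 1088 on E. coli against 8753, 5937 and 12275 on PA14, so that the log2 fold change was 3.96 (SE 0.52, adjusted p = 1.21e-04). spp-18 rose by 2.61 on the log2 scale. spp-17, in contrast, had 9968, 14169 and 11746 on E. coli against 4227, 3294 and 4384 on PA14, and fell by 1.59 on the log2 scale. Among the galectins, which bind beta-galactosides, 6 of 12 rose and 1 fell. lec-6 had 6488, 7134 and 6793 on E. coli against 25686, 17935 and 25894 on PA14 (log2 fold change 1.75, adjusted p = 5.50e-05), and lec-8 rose from 896, 1209 and 1333 to 7259, 4098 and 6081 (2.32). No library on E. coli reached the lowest library on PA14 in either gene, which for lec-8 was a condition for naming it. Of the 6 galectins that rose, 5 were called in every fit that left out 1 library. The exception was lec-9, with 0.89 without the first library on E. coli, 0.90 without the first on PA14 and 0.99 without the third one there. The call of lec-3, the member that fell, was lost without the second library on E. coli (-0.82) and without the second on PA14 (limma adjusted p = 0.055) or the third (-0.69).

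Small antimicrobial peptides of the epidermis were called in both directions. The caenacins and the neuropeptide-like peptides of the nlp-24 to nlp-34 group are induced in the epidermis by fungal infection and wounding. Of 16 tested, 4 (25%) rose and 6 (37.5%) fell, against 10.1% and 15% of all genes. Of these, 2 higher and 5 lower calls were kept in every fit without 1 library. The change was 0.98 for nlp-34 without the third library on E. coli and 0.79 for nlp-28 without the first, and the call of cnc-8, a lower one, was lost without 4 of the 6 libraries in turn. nlp-24 had 3140, 4310 and 3136 on E. coli against 957, 573 and 322 on PA14 (log2 fold change -2.63, adjusted p = 8.23e-04). nlp-26 fell by 3.02 on the log2 scale, and nlp-27 went from 4633, 6666 and 5147 to 1526, 1575 and 1753 (-1.75). The caenacins cnc-2 and cnc-7 rose, from 19, 4 and 17 to 61, 58 and 120 and from 9, 2 and 4 to 43, 40 and 33. Of the defensin-like and fungus-induced peptides (abf, fip and fipr), 10 of 23 (43.5%) fell and 1 rose, and the median log2 change was -1.2. fipr-10 fell from 99, 307 and 110 to 12, 14 and 16, whereas abf-2, an antibacterial factor expressed in the pharynx, rose from 30, 20 and 29 to 70, 87 and 108 (log2 fold change 1.71, adjusted p = 5.08e-04).

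The genes named for their induction by infection (irg) or for lying downstream of the FOXO factor DAF-16 (dod) rose almost without exception, 15 of 17 (88.2%) against 10.1% of all genes. The median log2 change was 2.71. dod-24 (chromosome IV, 12940106 to 12941354) and dod-22 encode secreted proteins with CUB-like domains. dod-24 had values of 121, 181 and 210 on E. coli against 13917, 7231 and 16167 on PA14 (log2 fold change 6.14 ± 0.49 (SE), adjusted p = 4.41e-05). irg-3 (chromosome V, 2592591 to 2595062), a gene known to depend on ZIP-2, went from 165, 204 and 166 to 4053, 1804 and 4133 (4.13). irg-5 went from 30, 58 and 133 to 987, 1053 and 1643 (4.26) and irg-4 from 210, 149 and 180 to 987, 809 and 975 (2.36). irg-6 had 0, 1 and 0 on E. coli against 126, 81 and 254 on PA14. In each of these genes the lowest value on PA14 was above the highest on E. coli. The groups did not overlap in 59.3% of all genes tested, and for irg-6 this was a condition for naming it. The irg genes carry their name because they respond to infection, so that their direction here is no independent evidence.

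Genes reported to need PMK-1 for their expression gave 13 higher calls (86.7%, against 10.1% of all genes) and 1 lower call among 15 tested. The median log2 change was 3.41. The list shares members with those above, irg-6, dod-24 and lys-2 among them, so that its counts are no separate evidence. Their sum took 0.0281% to 0.0508% of the library total on E. coli and 0.525% to 0.941% on PA14. sysm-1 (T24B8.5, chromosome II, 9082626 to 9083193), which encodes a small secreted peptide with a ShK toxin domain and is widely used as a reporter of this pathway, had 144, 139 and 200 on E. coli against 14377, 7078 and 10247 on PA14. Its log2 fold change was 5.99 (SE 0.49, adjusted p = 4.41e-05). mul-1, a mucin-like gene, went from 17, 15 and 17 to 577, 290 and 700 (log2 fold change 4.82). clec-4 rose from 25, 46 and 55 to 445, 306 and 543, clec-67 from 27, 70 and 69 to 486, 319 and 608, and K08D8.5, another CUB-like gene, from 79, 151 and 137 to 1509, 784 and 1712. C17H12.8 had 176, 516 and 499 on E. coli against 4550, 2314 and 4709 on PA14. Only 2 members of the list did not rise. cnc-4 had a log2 change of -0.03, and catp-3, a cation-transporting ATPase (C09H5.2), fell from 21, 31 and 19 to 9, 6 and 5.

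Of 13 tested members of the cascade itself, 2 (15.4%, against 10.1% of all genes) were called higher and none lower. pmk-1 had 36, 29 and 32 on E. coli against 45, 38 and 46 on PA14, a log2 difference of 0.40. The kinases upstream of it, sek-1 and nsy-1, had log2 differences of -0.18 and -0.04, and the transcription factor atf-7 of 0.07. vhp-1, a phosphatase that acts on PMK-1, rose from 17, 30 and 20 to 80, 61 and 82 (log2 fold change 1.72, adjusted p = 2.39e-04). tir-1, the adaptor at the head of the cascade, had 8, 12 and 11 on E. coli against 23, 20 and 27 on PA14 (1.11), and its change was 0.95, under the 2-fold limit, without the first library on E. coli. Of the bZIP factors, zip-5 rose from 22, 38 and 20 to 193, 117 and 217 (2.68, adjusted p = 1.51e-04) and cebp-1 from 20, 34 and 28 to 82, 70 and 142 (1.77). The ZIP-2 and C/EBP list, which holds irg-1, irg-2 and irg-3, gave 5 higher calls among 12 members, and 8 at equal library totals.

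Of 31 further regulators of defence, 4 (12.9%, against 10.1% of all genes) were called higher, and 8 at equal library totals. Besides elt-7, an intestinal GATA factor that rose from 27, 42 and 28 to 87, 68 and 74 (log2 fold change 1.24, adjusted p = 0.00178), they were mlk-1, fshr-1 and nhr-8. Without the first library on E. coli the log2 change was 0.89 for nhr-8 and 0.92 for fshr-1, and that of fshr-1 was 0.98 and 0.90 without the first or the third library on PA14, all under the 2-fold limit. daf-16 had 40, 36 and 41 on E. coli against 32, 40 and 37 on PA14. skn-1, the Nrf-like factor, had log2 difference 0.24 and the intestinal GATA factor elt-2 0.61. Of 129 nuclear hormone receptors, a family much expanded in nematodes, 25 (19.4%, and 44 at equal library totals) rose and 4 fell, with a median log2 change of 0.44. Of these calls, 16 of the 25 and 3 of the 4 were kept in every fit that left out 1 library. nhr-112 rose from 10, 7 and 9 to 75, 51 and 86, a log2 fold change of 2.87.

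Members of gene families that are known to respond to intracellular pathogens and to disturbed proteolysis were also among the higher calls. F-box proteins recruit substrates to SCF ubiquitin ligases, and 46 of 96 tested fbxa, fbxb and fbxc genes (47.9%) rose while 1 fell. fbxc-58 went from 9, 9 and 6 to 169, 85 and 154 (log2 fold change 3.89) and fbxa-128 from 10, 12 and 8 to 172, 86 and 200 (3.73). fbxa-72 moved the other way, from 47, 51 and 31 to 4, 5 and 4. The MATH and BATH domain proteins, which are adaptors of another class of ubiquitin ligase, gave 9 higher calls and no lower call among 46, a share of 19.6%, and at equal library totals 14 were higher. In the pals family 4 of 11 rose, and 7 did at equal library totals. pals-24 had 76, 101 and 75 on E. coli against 719, 422 and 664 on PA14 (2.80, adjusted p = 4.41e-05), and pals-23 went from 62, 67 and 51 to 403, 250 and 362 (2.46). pals-22 and pals-25, which repress and activate the intracellular pathogen response, had log2 differences of 0.68 and 0.57 that did not pass the 2-fold limit. Of 9 tested members of the oac family of acyltransferase homologues, 7 rose, with small values, and 5 of these calls were kept in every fit that left out 1 library. oac-57 had 12, 15 and 11 on E. coli against 55, 35 and 41 on PA14.

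**Figure D2:**
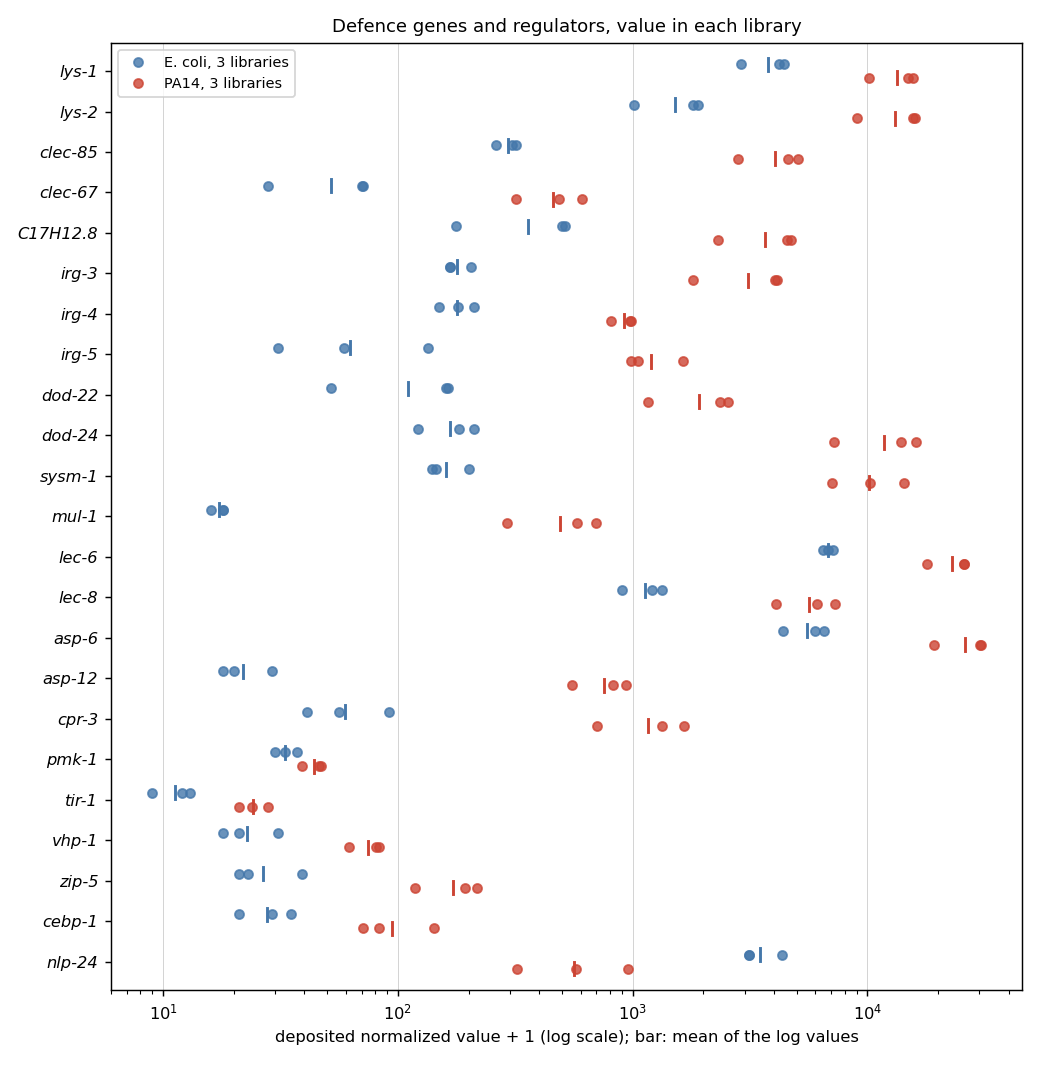
Normalized values plus 1 are drawn on a log scale for defence genes and their regulators, with 1 point per library, blue for E. coli and red for PA14, and a bar at the mean of the 3 log values. For effectors such as sysm-1 and dod-24 the red points (7078 to 14377 and 7231 to 16167) lie far to the right of the blue ones, whereas the points of pmk-1 lie close together and those of nlp-24 are lower on PA14.

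Secreted signals were called in either direction. Of 18 insulin-like peptides tested, 3 rose and 3 fell (16.7% each, against 10.1% and 15% of all genes). ins-7, which acts through the insulin receptor DAF-2 and is expressed in the intestine and in neurons, went from 27, 55 and 49 to 339, 177 and 162 (log2 fold change 2.33, adjusted p = 8.64e-04). ins-37 fell from 78, 141 and 47 to 5, 8 and 9 (-3.32). Neuropeptide genes of the flp and nlp families gave 6 higher (6.59%) and 7 lower calls (7.69%) among 91, both shares below those of all genes, and the lower calls include the nlp peptides with antimicrobial sequence described above. nlp-40, an intestinal peptide that times defecation, rose from 755, 744 and 754 to 2493, 1783 and 2852 (1.63, adjusted p = 5.18e-05). nlp-39 had 0, 0 and 4 on E. coli against 303, 199 and 434 on PA14. Of the 94 chemoreceptor genes listed, 12 passed the filter, and 5 of these rose (9 at equal library totals) and 1 fell. Their values were low, as in srw-86 with 0, 2 and 0 on E. coli against 54, 27 and 49 on PA14, and in str-7 with 13, 17 and 10 on E. coli and 0 in all libraries on PA14.

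Detoxification enzymes were called in both directions. Among the cytochrome P450 enzymes, which oxidize lipids and foreign compounds, 11 of 37 (29.7%) rose and 2 fell, although only 7 and 1 of these calls were kept in every fit without 1 library. cyp-13A5 had 1, 3 and 10 on E. coli against 180, 108 and 261 on PA14 (log2 fold change 5.28, adjusted p = 2.89e-04). The UDP-glucuronosyltransferases, which add sugars to such compounds, gave 11 higher (25.6%) and 14 lower calls (32.6%) among 43. ugt-31 rose from 37, 30 and 31 to 271, 135 and 271, and ugt-63 fell from 162, 158 and 148 to 26, 21 and 27. Glutathione S-transferases gave 6 higher (18.2%) and 7 lower calls (21.2%) among 33, against 10.1% and 15% of all genes. All 6 higher but 4 of the lower calls were kept in every fit without 1 library. At equal library totals and after quantile normalization 4 were lower. gst-38 went from 36, 89 and 26 to 746, 351 and 649 (3.63), whereas gsto-1, of the omega class, went from 436, 891 and 470 to 63, 50 and 45 (-3.42). The groups of libraries did not overlap in any of these genes, which was a condition for naming them. The transporter pgp-5, a P-glycoprotein, rose from 12, 15 and 17 to 99, 89 and 209, and was the only ABC transporter of 23 that did, although 3 were called higher at equal library totals.

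The stress genes below gave lower calls in 0% to 4.17% of each list, against 15% of all genes. Higher calls were 0% to 12.5%, against 10.1%. Of 25 cytosolic heat shock genes, 2 rose, hsp-17 from a mean of 173 ± 59.7 (SD, n = 3) to 910.3 ± 271 (log2 fold change 2.40, limma adjusted p = 0.00107) and hsp-12.6 from 21, 28 and 19 to 98, 57 and 142 (2.0). The heat-inducible hsp-16.2 overlapped between the groups, with 120, 321 and 382 on E. coli against 140, 310 and 149 on PA14. Of 27 endoplasmic reticulum chaperones and sensors, none rose by limma and 1 fell (13 had an unadjusted p under 0.05). At equal library totals 3 were called higher, and after quantile normalization 1. The member that fell was sec-61.A, a subunit of the translocation channel, with 2504, 2668 and 2251 on E. coli against 1066, 699 and 1256 on PA14. hsp-4, the chaperone BiP, had a log2 difference of 0.20. None of 33 proteasome subunits was called by limma. Of the 33, 21 had an unadjusted p under 0.05 and 13 an adjusted one, against 6254 of all 12174 genes. Of 24 antioxidant enzymes, 3 rose (5 at equal library totals) and 1 fell. The 3 were the catalases ctl-1, ctl-2 and ctl-3, near-identical copies whose reads cannot be assigned with certainty, and ctl-3 went from 116, 130 and 166 to 399, 358 and 422. The peroxidase gpx-5 fell from 388, 463 and 398 to 148, 154 and 156 (-1.44).

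Among genes of metal handling, most lower calls were heme genes. C. elegans cannot make heme and takes it from its bacteria, and the heme responsive genes (hrg) are known to be induced when heme is scarce. Of 25 tested genes for iron, heme and other metals, 3 (12%) rose and 6 (24%) fell, against 10.1% and 15% of all genes. Of the 6 that fell, 5 were hrg genes. hrg-1 (chromosome X, 4008057 to 4016221), a heme transporter of endosomes and lysosomes, had 464, 679 and 486 on E. coli against 24, 29 and 21 on PA14 (log2 fold change -4.40 ± 0.39 (SE), adjusted p = 4.41e-05). The plasma membrane transporter hrg-4 went from 438, 459 and 332 to 33, 33 and 23 (-3.75), and hrg-3, an intercellular heme chaperone, from 221, 480 and 312 to 58, 53 and 44 (-2.62). hrg-7 (chromosome V, 12742041 to 12744171), a secreted protease-like signal between intestine and neurons, had a mean of 2752 ± 498 (SD, n = 3) on E. coli and 91 ± 19.7 on PA14 (-4.91). Every value on PA14 lay below every value on E. coli in these genes, which for hrg-1 and hrg-7 was a condition for naming them. mtl-1, a metallothionein (chromosome V, 6691371 to 6691863), rose from 29, 12 and 48 to 1399, 1517 and 2513 (6.03, adjusted p = 2.25e-04), while the other metallothionein, mtl-2, had 3779, 3089 and 2622 on E. coli against 1621, 1801 and 1892 on PA14 and did not pass the 2-fold limit. The ferritin ftn-1 varied too widely to be called, with 2, 4 and 337 on E. coli against 109, 369 and 2442 on PA14.

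Several enzymes of sulfur amino acid metabolism fell. PA14 makes hydrogen cyanide, and the sulfur enzymes and their regulators were grouped with the hypoxia genes for that reason. Of 20 genes tested, 7 (35%, against 15% of all genes) fell and none rose, although 2 were called higher at equal library totals and 1 after quantile normalization. Besides the genes below, the 7 include mpst-7, cysl-4 and phy-2, a prolyl hydroxylase of collagen, whose call was lost at equal library totals (-0.99). cth-1 (chromosome V, 16100680 to 16102750), a cystathionine gamma-lyase that makes cysteine and hydrogen sulfide, had 810, 1209 and 597 on E. coli against 26, 34 and 24 on PA14 (log2 fold change -4.87 ± 0.46 (SE), adjusted p = 4.92e-05). The mercaptopyruvate sulfurtransferase mpst-6 went from 154, 299 and 128 to 10, 25 and 19 (-3.34) and mpst-4 from 36, 111 and 36 to 1, 4 and 2. cbs-2 fell from 20, 43 and 19 to 2, 5 and 5. hif-1 itself had a log2 difference of -0.05, and cysl-2 of -0.14. nhr-57, a target of HIF-1, had 0.93 and was not called.

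Of 17 tested genes of propionate breakdown and vitamin B12, 5 (29.4%, against 15% of all genes) fell and none rose. The 17 include the propionate shunt, which breaks down propionate when vitamin B12 is scarce, and genes that control it. Genes of the B12-dependent route and of B12 handling are also among them. hphd-1 (chromosome II, 12994354 to 12996571), an enzyme of the shunt, fell from 709, 839 and 765 to 68, 116 and 128 (log2 fold change -2.93 ± 0.26 (SE), adjusted p = 4.41e-05). nhr-114, a receptor that responds to low B12, fell from 304, 339 and 265 to 55, 52 and 58 (-2.43). The first enzyme of the shunt, acdh-1, had 962, 1325 and 776 on E. coli against 2, 3 and 1 on PA14. The enzymes of the B12-dependent route were close to level, with log2 differences of 0.10 for mmcm-1, -0.09 for mce-1 and -0.39 for pcca-1. Without the first library on PA14 the log2 change of hach-1 was -0.99, and the calls of hach-1 and ech-6 were lost at equal library totals. In the cycle that makes methionine and phosphatidylcholine, 4 of 26 genes (15.4%, against 15% of all genes) fell and none rose. sams-1, the main S-adenosylmethionine synthetase, had 456, 651 and 379 on E. coli against 99, 79 and 62 on PA14 (-2.60, adjusted p = 5.98e-04), and pmt-2, a phosphoethanolamine methyltransferase, went from 2574, 3236 and 2390 to 961, 898 and 1018 (-1.50).

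In lipid metabolism, 6 of 21 desaturases and elongases (28.6%, against 15% of all genes) fell and 1 rose. Of the 6 lower calls 4 were kept in every fit without 1 library, and at equal library totals the counts were 3 lower and 3 higher. The stearoyl-CoA desaturase fat-7 had 375, 408 and 636 on E. coli against 71, 87 and 120 on PA14 (log2 fold change -2.33, adjusted p = 3.03e-04), whereas its close paralog fat-6 had 1209, 1766 and 1047 on E. coli against 2031, 1911 and 2615 on PA14, a log2 difference of 0.73 under the 2-fold limit. fat-2, which acts later in the synthesis of polyunsaturated fatty acids, rose from 1949, 2411 and 2267 to 6407, 5176 and 6496 (1.45, adjusted p = 5.18e-05). Fatty acid activation and beta-oxidation gave 6 higher (10.3%) and 11 lower calls (19%) among 58, against 10.1% and 15% of all genes. acdh-8, an acyl-CoA dehydrogenase, fell from 156, 296 and 121 to 8, 19 and 15, and acs-7 and acox-1.5 rose by 1.69 and 1.59 on the log2 scale. Of 13 lipases, 4 rose and 1 fell. The lysosomal lipase lipl-1 had 180, 75 and 84 on E. coli against 494, 349 and 346 on PA14 (1.89), and lipl-2 went from 73, 83 and 129 to 361, 321 and 362 (1.90). mxl-3, a basic helix-loop-helix factor that represses lysosomal lipase genes in fed worms, fell from 284, 691 and 342 to 24, 51 and 46 (-3.37, adjusted p = 1.22e-04).

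Central energy metabolism was lower by small steps. None of 25 tested genes of the TCA and glyoxylate cycles was called by limma at the 2-fold limit. Of the 25, 21 had an unadjusted p under 0.05 and 20 an adjusted one. All 20 were lower on PA14, against 3104 of all 12174 genes. The median log2 change was -0.47. Of 45 nuclear genes of the respiratory chain, all had a log2 change below 0 (37 at equal library totals and 43 after quantile normalization), with a median of -0.47, and 1 was called, ucr-2.2, which fell by 1.39 on the log2 scale. Glycolysis and gluconeogenesis gave 4 lower calls (16.7%, against 15% of all genes) and no higher call among 24. gpd-2, a glyceraldehyde-3-phosphate dehydrogenase, had 1840, 2728 and 2140 on E. coli against 884, 929 and 903 on PA14 (-1.28, adjusted p = 6.27e-05). At equal library totals the medians of these 3 lists were -0.19, -0.19 and -0.12.

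**Figure D3:**
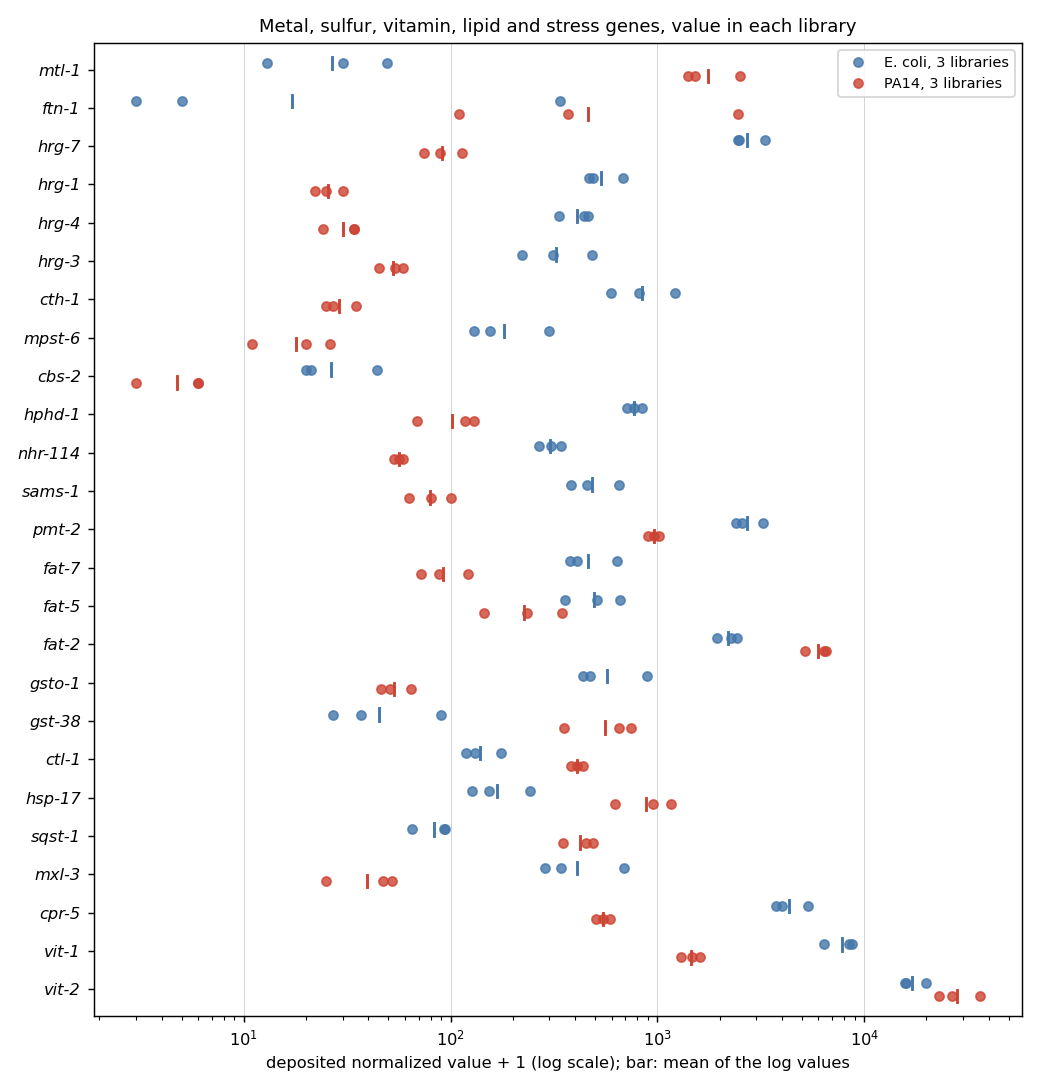
Normalized values plus 1 are drawn on a log scale for genes of metals, sulfur, vitamins, lipids and stress, with 1 point per library, blue for E. coli and red for PA14, and a bar at the mean of the 3 log values. The heme genes hrg-1, hrg-3, hrg-4 and hrg-7 as well as cth-1 and hphd-1 lie lower on PA14, mtl-1 lies higher, and the points of ftn-1 spread over the range of both groups.

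Lysosomal proteases changed in both directions. Of 11 aspartic proteases tested, 6 rose and 2 fell (1 at equal library totals), and all of them together went from 0.378% to 0.491% of the library total on E. coli to 1.31% to 1.97% on PA14. asp-6 had 4375, 5977 and 6529 on E. coli against 30254, 19310 and 30488 on PA14 (log2 fold change 2.23 ± 0.25 (SE), adjusted p = 6.69e-05). asp-12 (chromosome V, 8269210 to 8272056) rose from 17, 19 and 28 to 939, 550 and 827 (5.11), and asp-14 from 703, 772 and 657 to 7562, 3977 and 5501 (2.95). asp-13 moved from 850, 864 and 796 to 256, 216 and 252 (-1.79). Among the cathepsin B-like proteases, cpr-3 rose from 40, 91 and 55 to 1660, 701 and 1338 (4.28) and cpr-9 by 1.46 on the log2 scale, while cpr-5 fell from 3980, 5347 and 3757 to 586, 506 and 546 (-2.98, adjusted p = 6.22e-05) and cpr-8 from 216, 283 and 204 to 31, 25 and 27. Of 27 autophagy and lysosome regulators, 25 had a log2 change above 0 and the median was 0.55, and 3 were called higher. At equal library totals 8 were called higher, and without the first library on E. coli the call of atg-2 was lost (0.87). sqst-1, the p62 cargo receptor, had 64, 92 and 93 on E. coli against 485, 347 and 448 on PA14 (2.35, adjusted p = 4.41e-05), and epg-2 rose from 26, 19 and 19 to 85, 83 and 85.

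Most genes of the translation machinery were lower by less than 2-fold. All 81 tested genes for cytosolic ribosomal proteins had a log2 change below 0 (77 at equal library totals and 69 after quantile normalization), with a median of -0.53, and their sum took 33.2% to 35% of the library total on E. coli and 25.7% to 29.9% on PA14. Of the 81, 73 had an adjusted p under 0.05 and lower values on PA14, against 3104 of all 12174 genes. A single one passed the 2-fold limit, rpl-42, with 31, 70 and 26 on E. coli against 2, 7 and 10 on PA14. The medians of 69 mitochondrial ribosomal proteins and 37 translation factors were -0.35 and -0.35, with no call by limma in either list. Without the fold limit, 53 and 28 had an unadjusted p under 0.05 and 50 and 25 an adjusted one, against 6254 of all 12174 genes. Of 23 ribosome biogenesis genes, 3 (13%, against 15% of all genes) fell. fib-1 (fibrillarin) went from 6964, 6813 and 6285 to 2733, 2947 and 2505 (log2 fold change -1.29, adjusted p = 4.90e-05). nol-56 went from 3207, 3214 and 2993 to 1253, 1398 and 1184 (-1.3), and nucl-1 fell by 1.19 on the log2 scale. The call of nucl-1 was lost at equal library totals. The medians of the ribosomal protein, mitochondrial ribosomal protein and translation factor lists were then -0.25, -0.07 and -0.07.

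Reproductive genes divided between sperm and oocytes. All 30 tested major sperm protein genes fell, with log2 changes of -4.65 to -3.27, and their sum dropped from 0.893% to 1.95% of the library total on E. coli to 0.0659% to 0.177% on PA14. The genes of the msp family are near-identical copies, so their reads cannot be assigned to single members with certainty. msp-64 had 2701, 5467 and 2122 on E. coli against 93, 265 and 191 on PA14. The sperm-specific phosphatases gsp-3 and gsp-4 fell from 430, 897 and 350 to 21, 56 and 37 and from 287, 561 and 220 to 21, 46 and 38 (log2 fold changes -3.83 and -3.26), and smz-1, a sperm protein with PDZ domains, from 411, 878 and 370 to 31, 75 and 78. The 3 libraries of each group were far apart in these genes, and the second library on E. coli was the highest in all of them. Of 43 genes of the spe, ssp, nspd and spch families, 37 (86%) fell.

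By contrast, none of 29 oocyte and eggshell genes was called by limma. Of the 29, 11 had an unadjusted p under 0.05 and 6 an adjusted one, against 6254 of all 12174 genes. The log2 changes of the 29 ran from -0.01 to 0.47 with a median of 0.26. cbd-1, an eggshell protein, had 2138, 1556 and 2230 on E. coli against 2042, 2246 and 2173 on PA14, and the groups overlapped. The sum of this list took 0.533% to 0.794% of the library total on E. coli and 0.923% to 1.11% on PA14. No gene was called among 42 for germline proliferation and meiosis or among 40 for DNA replication and mitosis, and the medians were -0.12 (0.16 at equal library totals) and 0.11. In these lists 15 and 6 genes had an unadjusted p under 0.05 with limma, and 9 and 3 an adjusted one. The yolk protein genes diverged. vit-1 (chromosome X, 7727889 to 7733168) had 8449, 6367 and 8756 on E. coli against 1293, 1472 and 1612 on PA14 (log2 fold change -2.42 ± 0.27 (SE), adjusted p = 6.40e-05), whereas vit-5 had 16027, 13992 and 18083 on E. coli against 31402, 26706 and 38148 on PA14, a log2 difference of 0.99 just under the 2-fold limit. vit-3 and vit-4 overlapped between the groups. At equal library totals 1 vit gene and after quantile normalization 3 vit genes were called higher. The vit genes are similar in sequence, which limits how surely reads were assigned to each.

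Cuticle genes fell in large number. Of 109 cuticle collagen genes (col), 86 (78.9%) fell and 5 rose, and the median log2 change was -3.02. Together they took 8.12% to 10.9% of the library total on E. coli and 1.25% to 1.78% on PA14. col-19 (chromosome X, 421707 to 422691), the standard marker of the adult cuticle, had 20714, 29676 and 20344 on E. coli against 2285, 3654 and 2823 on PA14 (log2 fold change -3.02 ± 0.27 (SE), adjusted p = 4.41e-05). col-133 had 3588, 7054 and 2832 on E. coli against 19, 74 and 27 on PA14 (-6.90), and col-161 had 1627, 2221 and 1059 on E. coli against 11, 28 and 12 on PA14 (-6.56). The values on E. coli exceeded those on PA14 in every library, which for col-133 and col-161 was a condition for naming them. col-74 moved against the family, with 0, 0 and 2 on E. coli against 784, 169 and 78 on PA14.

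The collagens named for body shape fell into opposite sets. Of 20 dpy, sqt, rol, bli and lon collagens, 13 fell and 6 rose. bli-6 went from 1287, 1754 and 1148 to 25, 44 and 29 (log2 fold change -5.39), dpy-13 from 1297, 1673 and 1179 to 50, 50 and 38 (-4.88), and sqt-1 from 293, 457 and 329 to 13, 10 and 5 (-5.18). dpy-14 (chromosome I, 6843589 to 6845142) rose from 30, 4 and 22 to 1266, 1519 and 549 (6.06 ± 0.87 (SE), adjusted p = 2.10e-04) and dpy-17 (chromosome III, 5107330 to 5108492) from 64, 30 and 66 to 1645, 1382 and 751 (4.54). The collagens of the annular furrows, which are known to be made together early in each moulting cycle, did not move together here. dpy-10 rose from 31, 21 and 23 to 56, 59 and 50 (1.12), and dpy-8 fell from 28, 28 and 15 to 0, 0 and 1, as did dpy-9 from 47, 53 and 36 to 15, 10 and 6. dpy-2, dpy-3 and dpy-7 were called higher too, but none of these calls was kept without the first library on PA14, where the log2 changes were 0.95, 1.1 and 0.97 (adjusted p = 0.11, 0.0633 and 0.0921). None was kept either without the third library on E. coli (1.02, 1.23 and 1.07). Of the 6 higher calls in the list, 3 were kept in every fit that left out 1 library, and so were all 13 lower calls.

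Among non-collagen parts of the cuticle, higher calls came from cuticlins and related proteins. Of 11 cuticlins and zona pellucida proteins that passed the filter, out of 34 listed, 6 rose and none fell. The summed share of the list was not higher in every library, with 0.0051% to 0.00645% of the total on E. coli and 0.00626% in the third library on PA14. cut-3, a cuticlin, was listed at 0 in all 3 libraries on E. coli and between 36 and 347 on PA14. The apical matrix proteins noah-1 and noah-2 rose from 13, 7 and 8 to 26, 28 and 25 and from 28, 21 and 21 to 59, 54 and 56 (log2 fold changes 1.45 and 1.25). Of 32 hedgehog-related and patched-related genes, many of them expressed in the epidermis, 12 fell and 1 rose. grd-14 fell from 352, 451 and 229 to 25, 22 and 9 (-4.19), and wrt-10 rose from 31, 25 and 20 to 73, 58 and 57 (1.29). In the abu and pqn families, which encode proteins rich in glutamine and asparagine with a part in the pharyngeal cuticle, 13 of 43 fell and 2 rose, and abu-1 went from 43, 75 and 30 on E. coli to 0 in all libraries on PA14.

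Tissue markers were called lower mainly in muscle. Of 21 body wall muscle markers, 14 (66.7%) fell and none rose, and 10 of the 14 were kept in every fit that left out 1 library. The myosin heavy chain unc-54 had 497, 1126 and 684 on E. coli against 299, 176 and 156 on PA14 (log2 fold change -1.84, adjusted p = 0.00395), and troponin T tnt-2 had 1363, 2257 and 1450 on E. coli against 592, 422 and 312 on PA14 (-1.94, adjusted p = 1.84e-04). pat-10, a troponin C, went from 11177, 14043 and 10101 to 4958, 3646 and 3215 (-1.59). The second library on E. coli was the highest in all 3 genes. Of 18 intestine markers, 5 rose and none fell, with a median of 0.51. ifo-1, which organizes intestinal intermediate filaments, had 42, 50 and 35 on E. coli against 116, 68 and 106 on PA14 (1.15). Without the third library on PA14 the log2 changes of ges-1 and aqp-4 were 0.96 and 0.86, under the 2-fold limit, and that of aqp-4 was 0.88, 0.99 and 0.96 without the first or the third library on E. coli or the first on PA14. Of 17 neuron markers, 2 (11.8%, against 10.1% of all genes) rose. Among them unc-64, the syntaxin of synapses, went from 77, 92 and 84 to 258, 181 and 248 (1.42). Pharynx markers gave 1 higher (8.33%) and 3 lower calls (25%) among 12, against 10.1% and 15% of all genes. Of the lower calls only pqn-2 was kept in every fit without 1 library. Those of myo-1 and marg-1 were lost after quantile normalization (-0.83 and -0.98), with the 6 libraries alone and without single libraries, where they were -0.69 and -1.23 without the third on E. coli. pqn-2 was listed at 0 in every PA14 library after 29, 53 and 23 on E. coli.

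Of 13 tested stage genes, 6 were called lower on PA14. They were vit-1, the adult collagens col-19, col-7 and col-62 and the blister collagens bli-1 and bli-2, so that apart from vit-1 they are cuticle genes already counted above. The other stage genes were not called, and 1 was called higher at equal library totals and 3 after quantile normalization. The heterochronic gene lin-41 had 164, 118 and 163 on E. coli against 155, 160 and 146 on PA14, and lin-28 had a log2 difference of 0.23. Worms were moved at the L4 stage, and the sperm and adult cuticle genes are normally expressed around the passage from that stage to the adult. The part that a difference in stage has in the sperm, collagen and muscle results was not tested.

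The PA14 response of the control RNAi libraries was set beside that of the 6 libraries labelled stt-3 RNAi, which share no library with it. In those, 885 of the same 12174 genes were higher and 1609 lower on PA14. They included 1480 (80.8%) of the 1831 genes called lower in control RNAi and 689 (56.2%) of the 1225 called higher. The log2 change had the same sign in the labelled libraries in 1808 of the 1831 and in 1153 of the 1225. The filter used the control RNAi libraries only, so that genes with such values in the labelled libraries alone were not tested. A test of the difference between the responses called 180 genes (1.48%), and the log2 change was greater in control RNAi in 151 of them and smaller in 29. These 180 genes held 101 of those that rose in control RNAi and 14 of those that fell. The number depended on single libraries, and ran from 92 without the third PA14 library of control RNAi, or without the second PA14 library of the labelled group, to 229 without the second PA14 library of control RNAi. Without the other libraries it was 115, 148 and 135 for those on E. coli and 100 for the first on PA14 in control RNAi. In the labelled group it was 120, 221 and 181 for those on E. coli, and 111 and 167 for the first and the third on PA14.

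Effector genes of the intestine were among those that differed. sysm-1 had a log2 change of 5.99 in control RNAi and 0.52 in the labelled libraries, and the difference of 5.47 had an adjusted p of 0.00429. asp-5 and asp-6 rose by 1.87 and 2.23 on the log2 scale in control RNAi, with log2 changes of -0.67 and -0.22 in the labelled libraries (differences 2.54 and 2.45, adjusted p = 0.00243 and 0.00754). lys-8 differed likewise, with 1.86 against -0.36 (adjusted p = 0.0041). The median log2 change of the lys genes was 1.86 in control RNAi and -0.36 in the labelled libraries, that of the asp genes 1.56 and 0.00, and that of the PMK-1 target list 3.41 and 0.86. For the col genes the medians were -3.02 and -2.53 and for the msp genes -3.76 and -3.69, and the difference was called by limma in 0 of 109 and 0 of 30 of them, with an unadjusted p under 0.05 in 17 and 0. In the list of iron, heme and metal genes, hrg-1 had -4.40 and -3.93 and hrg-7 -4.91 and -5.59. The only member of that list whose difference was called was fpn-1.1, a ferroportin homologue.

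**Figure D4:**
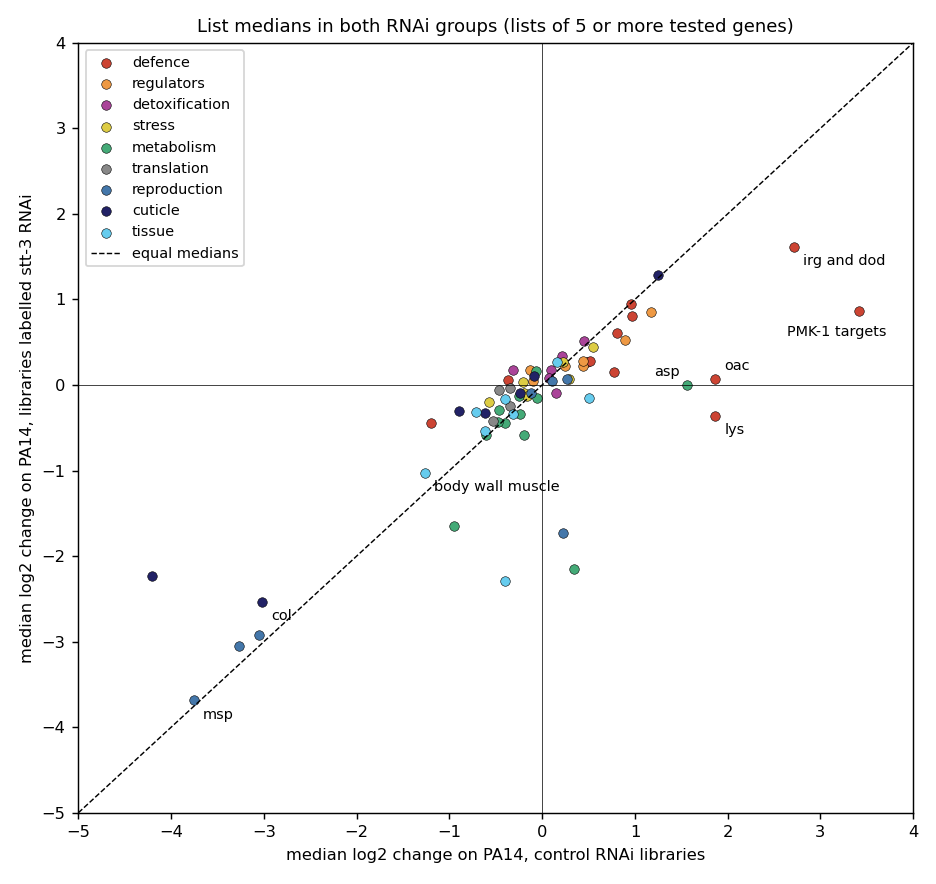
Each point is 1 of 70 gene lists with at least 5 tested genes, placed by its median log2 change on PA14 in control RNAi (horizontal axis) and in the libraries labelled stt-3 RNAi (vertical axis), coloured by the kind of list, with a dashed line where the medians are equal. The lists of msp genes (-3.76 and -3.69) and col genes (-3.02 and -2.53) lie near the line at the lower left, and the PMK-1 target, irg and dod, lys, asp and oac lists lie below it at the right.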

How the data were processed

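RNA-seq was performed on 12 libraries, of which the 6 of control RNAi are reported. Per the submitters' processing notes reads were handled with HISAT2 2.0.5 and StringTie 1.3.3b. The authors used WBcel235, Ballgown, upper-quartile normalization and RUVSeq, and deposited 1 score per gene and library, a normalized value rounded to whole numbers under the heading count. Because these scores are not counts, no count model was used and no interval for depth is given. Symbols and coordinates came from WBcel235 annotation (Ensembl release 115), and 16626 of 17430 genes had a symbol. log2(score + 1) was fitted with limma 3.58.1 in R 4.3.3 over all 12 libraries with a mean for each of the 4 conditions and the trend option. All p values are 2-sided and BH-adjusted over 12174 genes. On simulated data with 200 changed genes, the fit was checked before use. The gene lists, the genes named and the tests were chosen with earlier results of these data known. Named genes were the 8 largest increases and decreases with a mean of at least 100 and no overlap. The 2 largest in each direction per list were added (mean of at least 100, or 20 where none reached it), also with no overlap. Members of lists given by name or with at most 15 tested genes were added without that condition. Promoter sequences and motifs were not used here. Alternatives were other filters, pseudocounts, scalings, a replicate block, fewer libraries, and leaving out each library.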

Additional observations from a re-analysis of the deposited data

Results flagged for a closer look

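Of the 783 genes named or nameable, 38 had a response to PA14 that differed between control RNAi and the libraries labelled stt-3 RNAi. The limits were an adjusted p under 0.05 in limma's test of the difference itself and a difference of more than 2-fold. Over all 12174 genes tested, 180 (1.48%) passed. The values below are the log2 change in control RNAi minus that in the labelled libraries. Among defence genes the difference was 6.37 for clec-174, 5.89 for oac-20, 5.47 for sysm-1, 5.26 for dod-22, 4.29 for ilys-5, 3.53 for K08D8.5, 3.43 for oac-6, 3.41 for C17H12.8, 2.34 for lys-1, 2.22 for lys-8, 2.2 for clec-85, 2.13 for nlp-28 and 1.66 for pals-16, and it was -2.04 for nlp-27. clec-174 was listed at 0 in all libraries of control RNAi on E. coli, so that its difference depends on the pseudocount. For ilys-5 the log2 change was -0.82 in control RNAi and -5.11 in the labelled libraries.

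Proteases, lipid genes and intestinal genes followed. The difference was 3.90 for asp-12, 2.54 for asp-5, 2.45 for asp-6, 2.28 for asp-2, 1.65 for asp-1 and 1.55 for asp-3 among aspartic proteases, and 3.10 for cpr-1, 2.23 for cpr-4 and 1.82 for cpr-9 among cathepsin B-like proteases. It was 3.29 for lipl-1, 2.38 for lipl-5, 1.47 for fat-3, 2.46 for vit-3, 2.44 for vit-4, 2.41 for vit-1 and 1.84 for vit-5. Further genes were nspg-7.2 with 4.08, nhr-50 with 2.03, the peroxidase gpx-7 with 1.91, the intestinal filament genes ifb-2 and ifc-2 with 1.82 and 1.79 and the ATPase subunit vha-6 with 1.48. The difference was negative for the superoxide dismutase sod-3 (-1.3) and the ferroportin homologue fpn-1.1 (-1.15).

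All 38 differences kept their sign in the 12 fits that left out 1 library each, and 28 to 38 of them passed the test there. They had been selected by the same test in these libraries, so that a kept sign is no independent support. Without the second PA14 library of the labelled group, C17H12.8, asp-1, asp-3, clec-85, nhr-50, nlp-27, nspg-7.2, oac-6, pals-16 and sod-3 did not pass. Without the third PA14 library of control RNAi the same genes other than sod-3 did not pass. Against a null of a 2-fold difference 3 of the 38 passed. The genes C17H12.8, asp-2, clec-85, lys-8, nhr-50, oac-20 and sod-3 share exon sequence with a neighbour.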

How the results depend on the processing

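The settings were compared by the number of genes called higher and lower on PA14, 1225 and 1831. Without a filter on low values 1912 were higher (and 2497 lower), with a mean of at least 50 over the 6 libraries 579 and 801, and 564 were higher when tested against a 2-fold change (1228 lower). The other settings, which covered pseudocounts, scalings, the filter over all 12 libraries, the 6 libraries alone and no trend, gave 889 to 1747 higher and 1629 to 2047 lower. Without 1 library the counts were 1101 to 1326 and 1641 to 1914. The 180 genes whose response differed between the RNAi groups became 4 when tested against a 2-fold change and 92 to 229 without 1 library. The fits without a library of the labelled group were chosen after seeing the data. Labels give equal replicate numbers on E. coli and PA14, but deviations of equally numbered libraries correlated with r of 0.04, 0.17 and 0.10, and the first PA14 library correlated best with the third on E. coli (0.08), so the numbers were not taken as pairs. With a replicate block 1233 genes were higher, 1876 lower and 242 differed between the RNAi groups. With the block and the 6 libraries alone 1212 were higher and 1850 lower.

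Of the 783 genes named or nameable, none changed direction with a call under any setting, and 268 were called. Of these 36 were lost without 1 library, 22 at equal library totals, 13 under quantile normalization, 32 with a pseudocount of 10 and 107 against a 2-fold change. Depth is unknown, so precision at low values could not be set from counts. With 3 libraries per group of unstated independence, 1 time point and only PA14 and E. coli compared, neither culture nor diet nor stage can be told apart from the exposure.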

Other observations

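Several other gene groups were called in part on PA14. Of 28 short-chain dehydrogenases, 3 (10.7%, and 5 at equal library totals) rose and 2 (7.14%) fell, against 10.1% and 15% of all genes. dhs-25 had normalized values of 1296, 1296 and 857 on E. coli against 68, 74 and 71 on PA14 (log2 fold change -3.97, limma adjusted p = 5.33e-05), and dhs-9 rose from 167, 192 and 187 to 494, 418 and 587 (1.44). The transthyretin-related proteins, a nematode family of secreted proteins, gave 5 higher (10.2%, and 10 at equal library totals) and 11 lower calls (22.4%) among 49. ttr-23 rose from 9, 20 and 12 to 441, 212 and 283 (4.42) and ttr-14 fell from 284, 542 and 223 to 35, 50 and 40 (-2.95). Of 23 genes for moulting and collagen processing, 1 (4.35%) rose and 6 (26.1%) fell, against 10.1% and 15% of all genes. The astacin protease nas-20 went from a mean of 253 ± 18.6 (SD, n = 3) to 94.3 ± 9.07 (-1.41). Epidermis markers gave 2 higher (13.3%) and 5 lower calls (33.3%) among 15. The latter included collagens such as rol-6, with 131, 200 and 160 on E. coli against 8, 7 and 6 on PA14. Among 7 markers of the gonadal sheath and spermatheca, sth-1, a spermatheca protein, was the only one called, from 133, 230 and 118 to 43, 36 and 34 (-2.0), while the gap junction gene inx-8 had a log2 difference of 0.13. Of 6 coelomocyte, excretory and glia markers 1 fell, ifb-1, whereas at equal library totals none fell by limma and 1 rose (3 had an unadjusted p under 0.05 as deposited). The reads of dhs-9, ttr-14, ifb-1 and vha-5 could come in part from a gene with overlapping exons.

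The mitochondrial chaperones hsp-6 and hsp-60 were lower by less than 2-fold, from 1550, 1508 and 1425 to 824, 843 and 905 and from 1481, 1234 and 1182 to 689, 673 and 818 (log2 differences -0.80 and -0.84). In that list of 15, 1 gene rose, dve-1 (0.92 without the first library on E. coli), at low values of 6 to 9 on E. coli and 17 to 19 on PA14, and 1 fell, gpd-2. Of 20 vacuolar ATPase subunits only vha-5 was called, with a log2 change of -1.14. The call was lost at equal library totals (-0.86), where 1 other subunit was called higher, and without the second library on E. coli (-0.98). All 5 phosphagen kinases were lower with adjusted p under 0.05, and 2 passed the 2-fold limit, 1 of them in every fit without 1 library. argk-1 fell from 801, 1192 and 651 to 2, 3 and 2 (-8.02) and F32B5.1 from 388, 668 and 425 to 196, 186 and 239 (-1.22). The call of F32B5.1 was lost without the second library on E. coli (-0.98) and at equal library totals (-0.94). The invertebrate-type lysozymes ilys-5 and ilys-4 had log2 differences of -0.82 and 0.81. Neither of the 2 thaumatin-like genes was called by limma or had an unadjusted p under 0.05.

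Among 237 gene classes with at least 6 tested genes, the following were chosen after their values were seen. The nspg class gave 7 higher calls among 11, the claudin-like clc class 10 among 18 with 2 lower, the SCF component class skr 8 among 18, and the histone class his 13 among 50 with 1 lower. All 11 nspb, 8 nspa and 6 irld genes were called lower, as were 7 of 8 ttbk kinases and 6 of 7 in both msrp and nsph. By chromosome, the share of tested genes called higher ran from 5.09% on chromosome I to 14.9% on V, and the share called lower from 11% on III to 19.7% on IV. Of 5015 genes that carry only a sequence name, 604 (12.0%) were higher and 1087 (21.7%) lower.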
